A study of Homo sapiens with 23 samples.

Results

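Mammosphere polarity was compared at the RNA level between 4 MCF10A lines in which it was most disrupted (R248Q, R273H, H179R and G245S) and 4 in which it was best kept (the library labelled WTOE, the library labelled WT, Y234C and Y163C). MCF10A is a non-transformed human mammary epithelial line that forms hollow spheres in a laminin-rich gel. The members are the 4 lines at each end of the study's order of radial laminin ratio, a staining score that is higher where laminin is not held at the outer rim, so they were chosen by an imaging score and not by RNA. The study describes every missense mutant as having partly or fully lost polarity, so Y234C and Y163C are called kept only relative to the other mutants. It also describes laminin in G245S spheres as very low throughout. The lines make up 8 of the 13 RNA libraries of the series. Each line is a stable culture of cells with 1 RNA library, in routine medium with no treatment, so the RNA is that of cells in culture and not of mammospheres.

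All 4 disrupted lines express a p53 missense mutant with a C-terminal V5 tag from the pLenti4/V5-DEST vector. The kept lines are mixed: Y234C and Y163C carry mutants in that same vector, WTOE overexpresses wild-type p53 from pLX304, and WT is the parental line with no transgene. Endogenous wild-type p53 is present in all 8. Disruption, a mutant in general and the vector can therefore be told apart only through Y234C and Y163C, and the study describes the Y234C protein as not elevated on a blot. Lines stand in for replicates of a set here, so every p-value measures the spread among lines and not among repeat cultures of 1 line.

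In a polarised mammary sphere, the basal side rests on a basement membrane of laminin, bound by integrins, while Par, Crumbs and Scribble proteins set the apical and lateral domains. Tight and adherens junctions, the latter built on E-cadherin, seal and hold the layer, and apoptosis of inner cells clears the lumen. Genes of these processes were therefore followed beside the genes that parted the sets most widely.

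Values are log2(TPM+1), the log2 of TPM (transcript abundance per gene length and library) plus 1, a scale that understates changes of low genes. Where 4 values are given for a set, their order is R248Q, R273H, H179R and G245S in the disrupted lines and WTOE, WT, Y234C and Y163C in the kept lines. Differences are means of the disrupted lines minus means of the kept lines on that scale. Of 58358 genes in the table, 12783 reached 1 or more in 3 or more of the 8 lines and were tested.

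CDKN1A, which encodes the cell cycle inhibitor p21 and is a classic p53 target, was 7.55, 5.18, 8.02 and 6.30 in the disrupted lines, against 6.46, 7.78, 7.58 and 7.09 in the kept lines. The ranges overlapped.

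The libraries held between 12122 and 14205 detected genes in the disrupted lines and between 12284 and 15975 in the kept lines. The means were 13430 ± 906 and 13518 ± 1713 (SD, n = 4 each), a difference within the spread of the lines (exact permutation, two-sided, p = 0.914, where the smallest possible p is 0.0286). R273H (12122 detected genes) and Y234C (12409) stood farthest from the other 7 lines, at mean Euclidean distances of 217.2 and 212.1 over the tested genes, against 165.6 to 186.0 for the remaining lines. They fall in different sets. In Y234C, 46.8% of the TPM lay in its 50 most abundant genes. KRT5, a keratin of basal mammary epithelium, was 9.97 to 10.86 in the disrupted lines and 10.54 to 10.83 in the kept lines other than Y234C (11.85). TP63, a transcription factor of basal cells, was 1.83 to 4.14 in R248Q, H179R and G245S and listed at 0 in R273H, against 3.31 to 5.27 in the kept lines. The luminal receptors ESR1 and PGR did not pass the filter.

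Over all tested genes, the sets did not form separate clusters. The mean distance between lines of different sets was 186.1, against 187.8 within the sets. The difference of -1.71 lay within the range given by the other ways of splitting the 8 lines (exact permutation over 35 splits, one-sided, p = 0.571). H179R lay nearest to Y163C (123.5), the shortest distance of all 28 pairs, across the set boundary.

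No gene passed limma's two-sided test at an adjusted p under 0.05, so 0% were called higher and 0% lower. At an unadjusted p under 0.05 there were 529 of the 12783 tested genes, 295 of them higher. This is a smaller share than the 0.05 that such a threshold gives where no gene differs. With its trend option off, limma also called 0 genes. The values were therefore read gene by gene. In 173 genes every disrupted line lay above every kept line (1.35% of those tested), and in 106 every disrupted line lay below (0.829%); these genes are called separated. Their median difference was 1.61 for those higher and -1.50 for those lower. The definition fixes these signs in advance, so the medians do not measure an effect. Over all tested genes, in both directions, the median was 0.07. The lines can be labelled disrupted or kept in equal sets in 70 ways. A gene is separated in a given direction under at most a single labelling of these. Neither 1.35% nor 0.829% exceeds the share that arbitrary labels can give in this way. The counts of separated genes alone therefore do not set these lines apart from arbitrary sets. The gaps were mostly narrow, with a median distance between the nearest lines of the sets of 0.26 for genes higher in the disrupted lines and 0.22 for genes lower. Y163C was the kept line nearest to the disrupted set in 81 of the 173 genes and in 43 of the 106. Counts of separated members in the gene lists below stand beside the shares of 1.35% and 0.829%, and 0 in a short list is near them. Counts of members higher stand beside 54.0% of all tested genes.

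MAP2, a microtubule-associated protein best known from neuronal dendrites, had the lowest p of all genes (ENSG00000078018, chromosome 2 from 209424047 to 209734147, GRCh38). It was 7.75, 6.47, 6.79 and 7.66 in the disrupted lines, against 3.07, 2.17, 1.73 and 4.80 in the kept lines. The lowest disrupted line was thus well above the highest kept line, Y163C. The difference was 4.22 (standard error 0.67, limma adjusted p = 0.0605, higher in 4 of 4 lines). Over 20 alternative settings the adjusted p ranged between 0.00294 and 0.997, and it passed in 3 of them: without H179R, without Y163C and with detected genes per library as a covariate.

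PDK4, the kinase that closes the pyruvate dehydrogenase complex and so turns cells from glucose to fat oxidation, had the widest gap among genes with a mean of at least 2 (ENSG00000004799, chromosome 7 from 95583499 to 95596516). It was 4.80, 6.06, 5.34 and 4.44 in the disrupted lines, against 1.57, 0, 0.16 and 2.58 in the kept lines. The library labelled WT was listed at 0, and Y163C was again the nearest kept line. Its difference was 4.09 (standard error 0.85, limma adjusted p = 0.498).

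FBN1, which encodes fibrillin-1 of the matrix microfibrils, was 4.78, 4.49, 4.55 and 3.79 in the disrupted lines, against 2.18, 1.23, 0.05 and 2.09 in the kept lines (chromosome 15 from 48408313 to 48645721). Its difference was 3.02 (standard error 0.83, limma adjusted p = 0.895). ACKR1, a receptor that binds chemokines without signalling, was spread widely within the disrupted set, at 6.55, 3.82, 3.24 and 2.16, against 0.74, 0.37, 0 and 0 in the kept lines. SPX, which encodes the secreted peptide spexin, was 5.55, 4.06, 4.41 and 5.12 in the disrupted lines, against 2.82, 1.35, 0 and 2.60 in the kept lines.

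BICC1, an RNA-binding protein, was tight within each set, at 4.42 to 4.84 in the disrupted lines and 3.01 to 3.48 in the kept lines. CALCOCO1, a coactivator of nuclear receptors, was 3.84 to 4.54 in the disrupted lines and 1.60 to 2.70 in the kept lines. MAP3K3, a kinase upstream of MAP kinases, was 4.11 to 4.66 in the disrupted lines and 0.50 to 3.06 in the kept lines. The adhesion molecule PCDH7 (difference 2.23), the tyrosine sulfotransferase TPST1 (3.03), the cytoskeletal adaptor OBSL1 (2.38) and the membrane protein TMEM53 (2.80) completed the coding genes. SUZ12P1 and PFN1P1 are pseudogenes, whose reads can belong to SUZ12 and PFN1, and their values are uncertain.

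**Figure D1:**
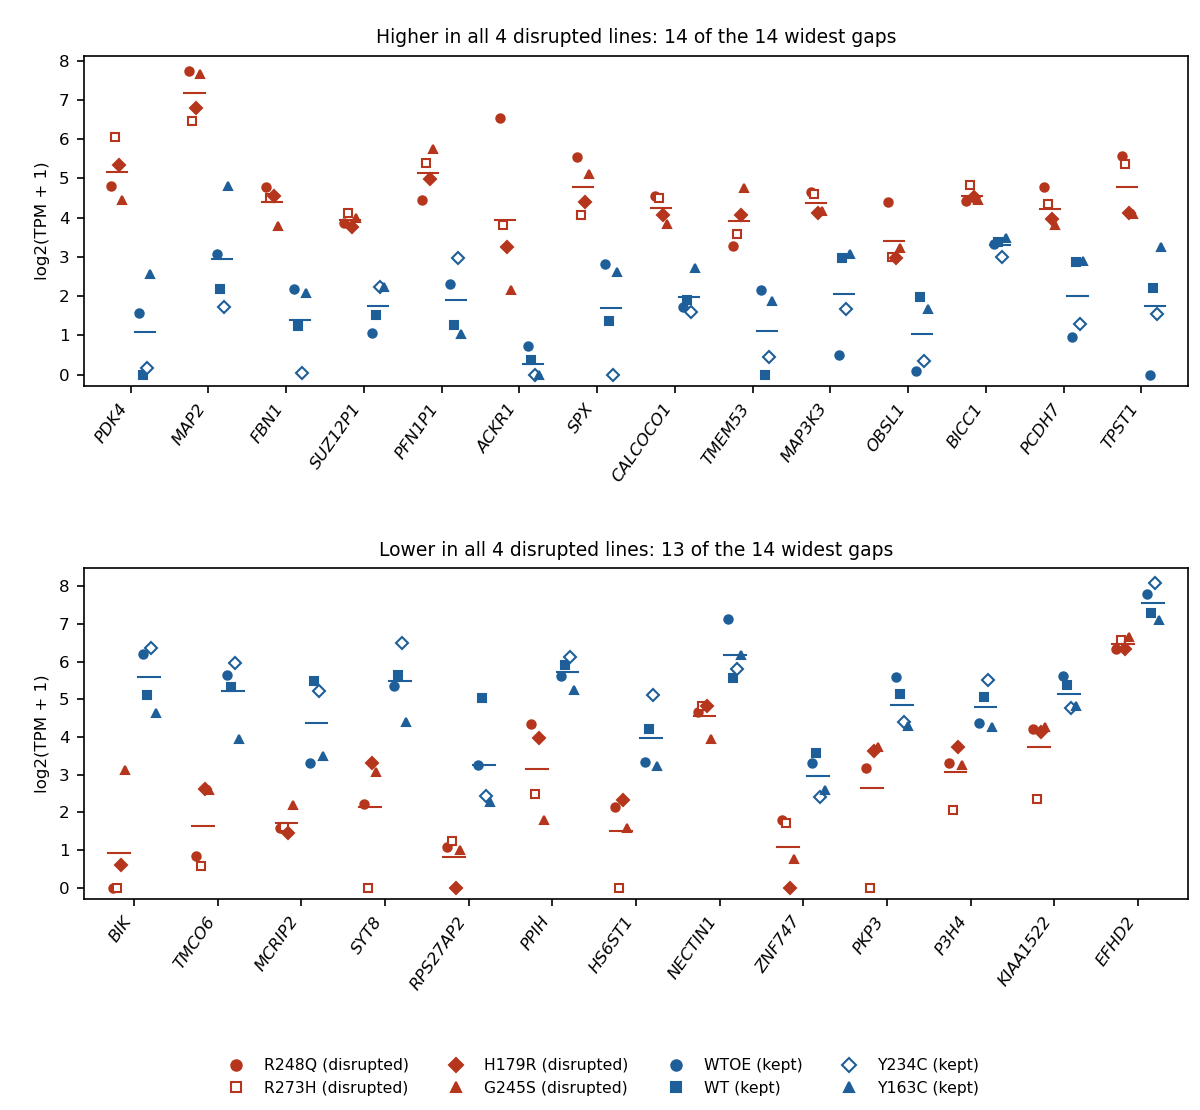
log2(TPM+1) of genes with the widest gaps in each direction, with 1 point per line (open symbols, R273H and Y234C) and a bar at the mean of the 4 lines of a set. MAP2 lies at 6.47 or more in the disrupted lines and at 4.80 or less in the kept lines, and BIK at 3.14 or less in the disrupted lines and at 4.63 or more in the kept lines.

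In the downward direction, BIK had the widest gap (ENSG00000100290, chromosome 22 from 43110750 to 43129712). BIK is a BH3-only member of the BCL2 family that promotes apoptosis. It was 0, 0, 0.61 and 3.14 in the disrupted lines, against 6.21, 5.13, 6.37 and 4.63 in the kept lines. R248Q and R273H were listed at 0, and G245S came nearest to the kept lines. The difference was -4.65 (standard error 0.88, limma adjusted p = 0.258, between 0.0982 and 1 over 20 alternatives).

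TMCO6 was 0.84, 0.57, 2.61 and 2.58 in the disrupted lines, against 5.66, 5.33, 5.97 and 3.94 in the kept lines. SYT8, a synaptotagmin of membrane trafficking, was 2.22, 0, 3.31 and 3.09 in the disrupted lines, against 5.37, 5.65, 6.50 and 4.41 in the kept lines. PPIH, a prolyl isomerase of the spliceosome, was 4.34, 2.48, 3.97 and 1.80 in the disrupted lines, against 5.63, 5.92, 6.12 and 5.25 in the kept lines. Their differences were -3.57, -3.33 and -2.59, and each had a limma adjusted p of 0.895. PPIH was tight in the kept lines (SD 0.38) and spread in the disrupted ones (SD 1.20).

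NECTIN1 and PKP3, of adherens junctions and desmosomes, were among the 14 widest gaps downward. HS6ST1, which adds sulfate to heparan sulfate chains, was 0 to 2.34 in the disrupted lines and 3.24 to 5.12 in the kept lines. EFHD2, a calcium-binding protein that associates with actin, was 6.34 to 6.66 in the disrupted lines and 7.11 to 8.08 in the kept lines. Others were P3H4 (difference -1.71), which takes part in collagen modification, MCRIP2 (-2.66), KIAA1522 (-1.40), ZNF747 (-1.90) and the pseudogene RPS27AP2 (-2.42), whose reads are uncertain.

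Adherens junction and desmosome genes hold neighbouring epithelial cells together. Of 23 tested members (24 listed), 14 were lower and 9 higher in the disrupted lines, 0 passed limma, and 2 were separated. Both were lower, against 0.829% of all tested genes separated downward. The median difference was -0.36, against 0.07 over all tested genes. It was 0.23 against Y234C and Y163C only and -0.72 against WTOE and WT only, and between -0.67 (without H179R) and -0.062 (without R273H) with 1 line left out. NECTIN1, the adhesion receptor that helps start adherens junctions, was 4.66, 4.83, 4.82 and 3.95 in the disrupted lines, against 7.14, 5.57, 5.81 and 6.17 in the kept lines. PKP3, a plakophilin that links desmosomal cadherins to keratin, was 3.18, 0, 3.63 and 3.73 in the disrupted lines, against 5.58, 5.14, 4.40 and 4.30 in the kept lines. Without R273H the difference of PKP3 was -1.34, against -2.22 with it.

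CDH1, which encodes E-cadherin (ENSG00000039068, chromosome 16 from 68737292 to 68835537), split the disrupted set. It was 0.96, 0.25, 6.17 and 4.47 in the disrupted lines, against 6.41, 6.23, 6.29 and 6.10 in the kept lines. The kept lines were tight (SD 0.13), R248Q and R273H lay far below them, and H179R lay inside their range. The difference was -3.29 (standard error 0.97, limma adjusted p = 0.986, lower in 3 of 4 lines than every kept line). EPCAM, an epithelial adhesion molecule, and DSG3, a desmosomal cadherin, were picked after their values were seen. EPCAM was 2.53, 3.51, 8.17 and 5.16 in the disrupted lines, against 6.70, 8.04, 7.98 and 7.61 in the kept lines. DSG3 was 0.46, 0.08, 5.50 and 3.58 in the disrupted lines, against 5.38, 4.79, 5.97 and 5.61 in the kept lines. H179R lay within or above the kept range for all 3 genes, and the low levels lay in R248Q and R273H, with G245S between. In bulk RNA, fewer cells with a gene and less of its RNA per cell cannot be told apart. Without H179R, EPCAM passed limma (difference -3.85, adjusted p = 0.032). So did S100A14 (-5.78, adjusted p = 0.0123) and S100A2 (-3.57, adjusted p = 0.032), both S100 proteins of epithelia. H179R, the line left out, lay within the kept range for S100A14 and S100A2 and above it for EPCAM. These p-values were thus obtained after removing the disrupted line that went against the pattern. They apply to R248Q, R273H and G245S and not to the disrupted set.

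No tight junction gene was separated (0 of 14 tested, of 26 listed), which is near the share over all tested genes (1.35% upward, 0.829% downward). Of the 14 tested, 11 were lower and 3 higher in the disrupted lines, with a median of -0.57 (-0.36 without R273H, -0.87 without Y234C). CLDN7, a claudin, was 3.82, 0, 3.51 and 1.43 in the disrupted lines, against 4.93, 4.16, 2.97 and 5.47 in the kept lines. TJP1, the scaffold ZO-1, was 7.82, 6.54, 7.34 and 7.39 in the disrupted lines, against 7.89, 7.53, 6.24 and 7.48 in the kept lines. Among the genes of this list with 1 lowest line, R273H or R248Q was that line in 75.0%, against 33.0% over all tested genes.

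The Par, Crumbs and Scribble complexes, which place the apical and lateral domains, overlapped between the sets in all 28 tested members (35 listed). This is near the share over all tested genes, of which 1.35% were separated upward and 0.829% downward. Of these, 17 were lower and 11 higher, with a median of -0.21 (0.12 without R273H, and 0.11 against WTOE and WT only), and 0 had an unadjusted p under 0.05. PARD3, the Par scaffold, was 5.03, 1.72, 4.75 and 4.50 in the disrupted lines, against 4.59, 5.42, 3.52 and 4.82 in the kept lines. PRKCI, the atypical protein kinase C of this complex, was 3.96 to 6.20 in the disrupted lines and 4.40 to 6.49 in the kept lines. SCRIB, the lateral Scribble scaffold, was 3.76 to 5.35 in the disrupted lines and 3.01 to 4.43 in the kept lines (difference 0.75, standard error 0.69). LLGL2, its partner of the lateral domain, was 1.77 to 4.60 in the disrupted lines and 2.74 to 4.61 in the kept lines. CRB3, the Crumbs protein of epithelia, was listed at 0 in R248Q, WTOE and Y234C and reached 5.39 in G245S.

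**Figure D2:**
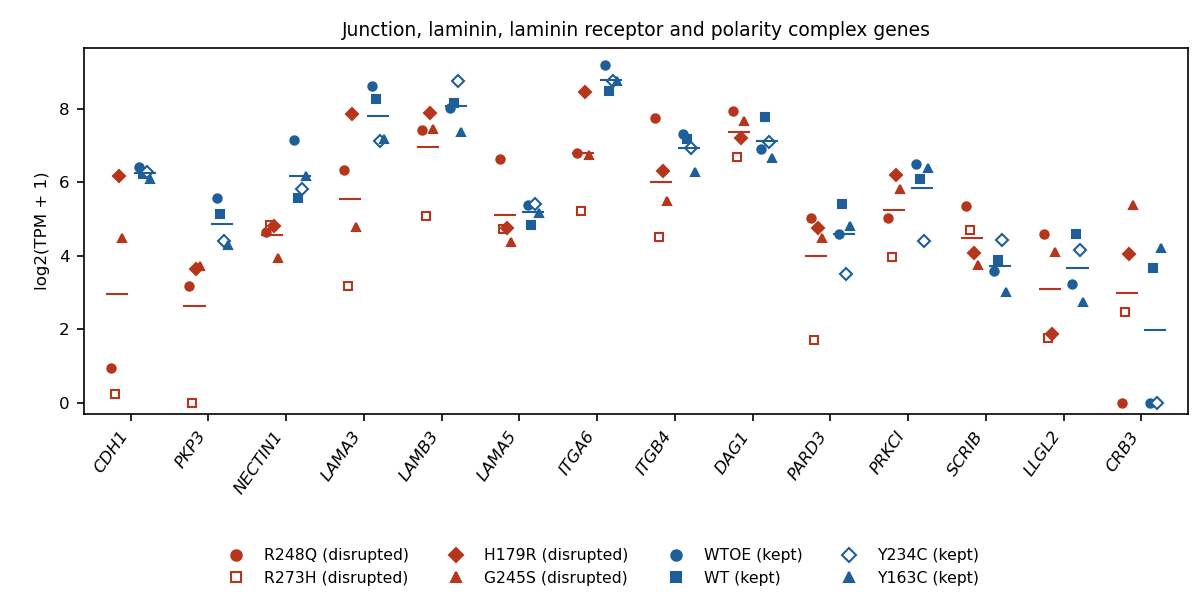
log2(TPM+1) of junction, laminin, laminin receptor and polarity complex genes, with 1 point per line (open symbols, R273H and Y234C) and a bar at the mean of the 4 lines of a set. CDH1 lies at 0.96 and 0.25 in R248Q and R273H, against 6.10 to 6.41 in the kept lines, and the points of PARD3, PRKCI, SCRIB, LLGL2 and CRB3 overlap.

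Laminin is the protein that the polarity score stains, and LAMA3 and LAMB3 encode chains of its mammary basal form. Both were lower on average in the disrupted lines. LAMA3 was 6.33, 3.18, 7.85 and 4.79 in the disrupted lines, against 8.61, 8.26, 7.13 and 7.17 in the kept lines (difference -2.25, standard error 0.74, limma adjusted p = 0.999). LAMB3 was 7.42, 5.08, 7.88 and 7.44 in the disrupted lines, against 8.01, 8.17, 8.74 and 7.36 in the kept lines (difference -1.11, standard error 0.56). R273H was lowest for each chain, and H179R lay within the kept range for each. For LAMB3, R248Q and G245S also lay within the kept range. Its difference was -1.42 to -0.49 with 1 line left out. LAMA5, the chain of another laminin, overlapped between the sets, at 6.62, 4.74, 4.75 and 4.38 in the disrupted lines, against 5.38, 4.84, 5.41 and 5.17 in the kept lines.

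Of 23 tested basement membrane genes (32 listed), 12 were lower and 11 higher, with a median of -0.08 (0.25 against Y234C and Y163C only, -0.28 against WTOE and WT only). The separated member was FBLN1, a fibulin that binds laminin and fibronectin, at 8.77, 7.94, 7.64 and 7.90 in the disrupted lines, against 6.13, 6.67, 7.25 and 7.01 in the kept lines (difference 1.30, standard error 0.45, limma adjusted p = 0.999).

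ITGA6, the laminin-binding integrin alpha chain of the hemidesmosome (ENSG00000091409, chromosome 2 from 172427354 to 172506459), was the separated member of the 18 tested laminin receptor genes (20 listed). It was 6.80, 5.23, 8.45 and 6.74 in the disrupted lines, against 9.19, 8.47, 8.75 and 8.75 in the kept lines. H179R (8.45) and the library labelled WT (8.47) almost met. The difference was -1.99 (standard error 0.55, limma adjusted p = 0.895). Its hemidesmosome partner ITGB4 overlapped, at 7.76, 4.51, 6.32 and 5.49 in the disrupted lines, against 7.31, 7.16, 6.94 and 6.27 in the kept lines. DAG1, the laminin receptor dystroglycan, was 6.68 to 7.93 in the disrupted lines and 6.66 to 7.78 in the kept lines. The list was even in direction, with 9 members higher and 9 lower and a median of 0.08, and of -0.057 to 0.18 with 1 line left out.

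Matrix proteases and their inhibitors had 4 separated members of 21 tested (29 listed), 2 in each direction, against 1.35% of all tested genes separated upward and 0.829% downward. TIMP1, an inhibitor of matrix metalloproteases, was among the most abundant RNAs, at 11.55, 14.59, 11.27 and 12.67 in the disrupted lines, against 9.52, 10.57, 11.27 and 9.77 in the kept lines. H179R and Y234C differed in the decimals beyond those shown. The difference was 2.24 (standard error 0.64, limma adjusted p = 0.915). SERPINE2, a serine protease inhibitor, was 5.36, 6.81, 4.89 and 4.73 in the disrupted lines, against 3.29, 3.50, 2.23 and 4.08 in the kept lines. ST14, the membrane protease matriptase, was 3.74, 4.72, 4.69 and 5.12 in the disrupted lines, against 5.51, 6.42, 6.38 and 5.27 in the kept lines. MMP14, the membrane-type metalloprotease, was 3.57, 2.75, 3.74 and 3.69 in the disrupted lines, against 3.88, 4.91, 5.51 and 3.75 in the kept lines, a gap of a few hundredths. Over the list 9 members were higher and 12 lower, with a median of -0.17 (0.10 without R273H).

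Genes of lumen formation gave 2 separated members. RAB11FIP1, an effector of recycling endosomes that feed the apical membrane, was 5.04, 3.17, 3.50 and 4.05 in the disrupted lines, against 3.10, 2.03, 2.80 and 2.35 in the kept lines. The apical trafficking list had 26 tested members (34 listed), 17 higher and 9 lower, with a median of 0.25 (-0.13 without Y234C). BCL2L11, which encodes BIM, the BH3-only protein known for clearing the lumen of MCF10A spheres, was 2.22, 1.82, 3.08 and 2.78 in the disrupted lines, against 3.11, 4.42, 3.24 and 3.89 in the kept lines. Its list of lumen clearing and apoptosis genes had 20 tested members (23 listed), 8 higher and 12 lower, with a median of -0.12. None of the 29 tested actomyosin regulators (30 listed) was separated, which is near the share over all tested genes, and their median was -0.0038.

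Of the lists on cell state, mesenchymal genes had a median difference of 1.15, against 0.07 over all tested genes, with 15 of 20 tested members higher (26 listed). It was 0.54 with 6 against 6 lines, and -0.29 for R175H and R273C minus Y220C and WTKD. The mean level over the list was 6.26, 4.30, 4.88 and 4.58 in the disrupted lines. In the kept lines it was 4.57, 3.95, 3.83 and 4.85, so the ranges overlapped. None of the members was separated, and none passed limma. VIM, the intermediate filament of mesenchymal cells, was 9.94, 9.81, 9.53 and 10.21 in the disrupted lines, against 8.86, 8.99, 7.74 and 9.61 in the kept lines, so that Y163C lay above H179R. Against that direction, INHBA, an activin subunit, was 2.02, 0, 0 and 0.11 in the disrupted lines, against 5.35, 3.05, 1.01 and 1.97 in the kept lines. INHBA and VIM were chosen after their values were seen. Beside this list, 3 of the 4 tested fibroblast markers (9 listed) were also higher, with a mean level over these markers between 1.03 and 3.63 in the disrupted lines and between 0.64 and 2.42 in the kept lines. The defining fibroblast collagens COL1A1 and COL1A2, THY1 and PDGFRA did not pass the filter, nor did any of 7 endothelial markers. The part of such cells in the result was not tested.

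Interferon response genes had a median of 1.04, with 14 of 16 tested members higher (24 listed). With 1 line left out the median lay between 0.56 (without WTOE) and 1.57 (without R273H). The mean level over the list was 3.83, 2.26, 3.62 and 4.30 in the disrupted lines, against 1.31, 2.78, 2.71 and 3.15 in the kept lines, so that R273H lay below 3 kept lines. IFI6, an interferon-induced protein picked after its values were seen, was 6.63, 3.92, 2.92 and 7.20 in the disrupted lines, against 0.48, 5.87, 0 and 1.64 in the kept lines (difference 3.17, standard error 1.17, limma adjusted p = 0.999). The library labelled WT lay among the disrupted lines.

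Among 22 tested YAP and TAZ targets (22 listed), 13 were higher and 9 lower, with a median of 0.31 (0.13 without Y234C, 0.49 without WTOE). CYR61, a secreted matrix protein and a standard readout of YAP, was 8.59, 7.78, 7.06 and 7.70 in the disrupted lines, against 6.30, 6.49, 5.61 and 6.34 in the kept lines (difference 1.60, standard error 0.47, limma adjusted p = 0.94). RBMS3, an RNA-binding protein of this list, was 3.55, 4.10, 4.48 and 4.13 in the disrupted lines, against 2.65, 2.01, 1.11 and 3.53 in the kept lines. R248Q and Y163C nearly touched.

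The other lists gave no separated member. Basal keratin and myoepithelial genes had a median of -0.87 (-0.54 without R273H), with 6 of 7 tested members lower (12 listed). Luminal mammary genes had a median of -0.37 (0.040 without R273H and Y234C), with 5 of 6 lower (15 listed). Wild-type p53 targets were lower in 22 of 33 tested (34 listed), with a median of -0.26 (0.0023 against Y234C and Y163C only), EGF receptor and PI3K genes in 15 of 22 (22 listed), with a median of -0.17, and cell cycle genes in 16 of 30 (30 listed), with a median of -0.07. The single blood cell marker tested (8 listed), CD14, was 0 to 3.96 in the disrupted lines and 1.84 to 5.64 in the kept lines.

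**Figure D3:**
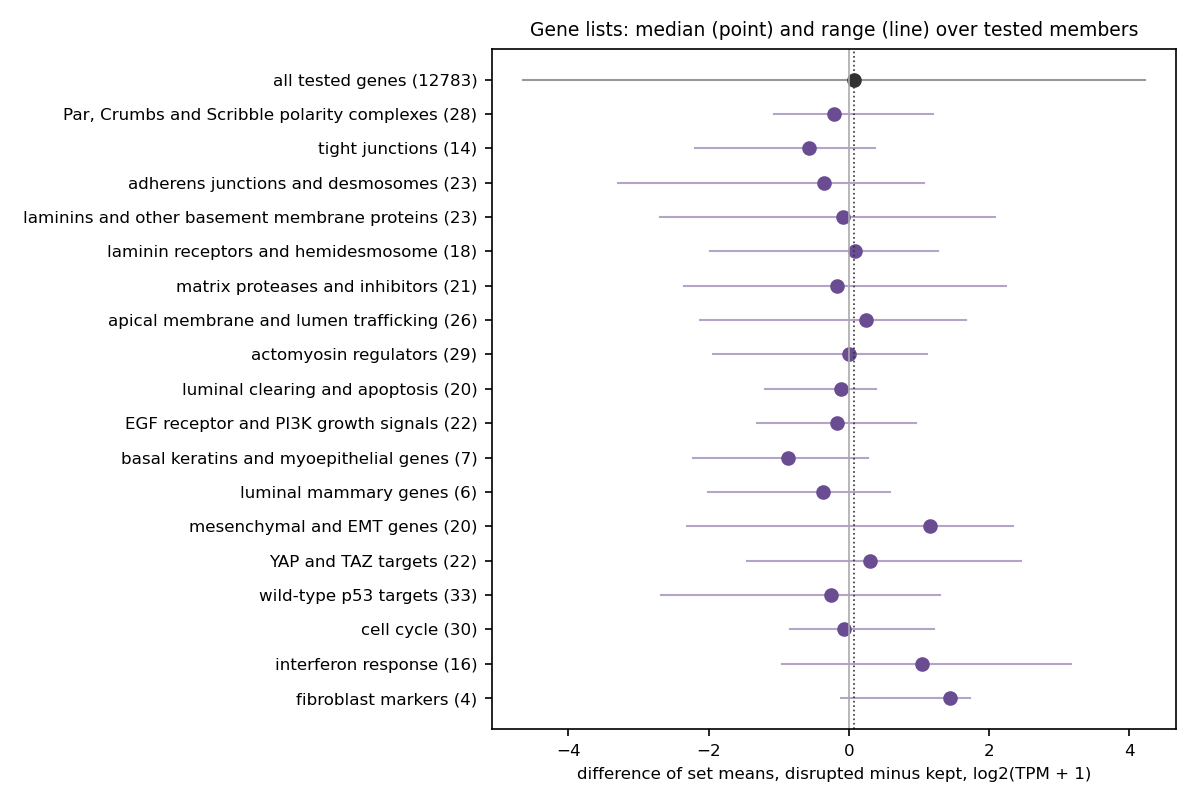
Median (point) and range (line) of the difference of set means over the tested members of each list, disrupted minus kept on the log2(TPM+1) scale, with the number tested in brackets and the median of all tested genes (0.07) as a dotted line. Mesenchymal (1.15) and interferon response (1.04) genes have the highest medians among lists with more than 4 members, and basal keratin genes (-0.87) the lowest.

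Binding of p53 was measured by V5 ChIP-seq in R273H of the disrupted set and in WTOE and Y234C of the kept set, with 1 library each. A promoter was taken as 2500 bases before to 100 bases after an annotated start, and the peak lists are MACS2 calls against input DNA. R273H peaks lay in the promoters of 8 of the 173 genes separated upward (4.62%) and of 2 of the 106 separated downward (1.89%), against 2.85% of all tested genes with a start. WTOE peaks lay in 18 (10.4%) and 11 (10.4%), against 7.32%. Y234C peaks lay in 3 (1.73%) and 0, against 1.24%. With only peaks of −log10 q of at least 3, the upward shares were 1.16% for R273H, against 1.03%, and 1.16% for WTOE, against 1.15%. No test was run on these shares.

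CDKN1A and PKP3 had an R273H peak in a promoter. LRP1 and MRAS, which are separated upward, also had an R273H promoter peak. The genome around the CDKN1A and PKP3 summits is shown to set a promoter peak with p53 half-site matches beside 1 without. The p53 half-site is the 10-base consensus that p53 binds in pairs, and it reads alike on both strands. It was searched in 121 bases centred on each summit (GRCh38, plus strand), and matches are in capitals.
CDKN1A, chr6:36676384-36676504: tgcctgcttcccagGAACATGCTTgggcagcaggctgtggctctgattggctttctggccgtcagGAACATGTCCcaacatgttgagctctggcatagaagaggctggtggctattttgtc
PKP3, chr11:390689-390809: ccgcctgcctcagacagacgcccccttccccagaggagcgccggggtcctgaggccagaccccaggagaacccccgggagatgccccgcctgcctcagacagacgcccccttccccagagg
The CDKN1A window held 2 half-site matches and the PKP3 window 0. The 2 matches are parted by a stretch of other bases, so they are not an adjacent pair. Only exact matches to the consensus are marked. Such a match was found in 6.15% of R273H summit windows, 2.91% of those of WTOE and 2.68% of those of Y234C, and in 2.47% of the 121 bases before the start of 35116 RefSeq promoters. The study places few R273H peaks in promoters, so promoters are an unlike background for them. It found the motif in a larger share of WTOE peaks, with stronger enrichment for wild-type p53 than for R273H. These window shares were not tested and do not rank the binding of the lines. The CDKN1A peak had a 7.23-fold enrichment over input in R273H (−log10 q 7.56) and 6.15-fold in WTOE (−log10 q 11.2), while CDKN1A RNA was 5.18 in R273H and 6.46 in the library labelled WTOE. The PKP3 peak had a 5.42-fold enrichment (−log10 q 4.31), with its summit at -1865 bases from the nearest start (upstream). The stretch that opens the PKP3 window recurs at its end, and whether this repeat affected the peak call was not tested. PKP3 RNA was listed at 0 in R273H, and a link between peak and RNA was not tested. WTOE peaks also lay in the promoters of SYT8, BCL2L11, FBLN1, OBSL1, RBMS3, LAMA5, SCRIB and LLGL2, with 2.62-fold to 3.74-fold enrichment. Their −log10 q was 1.33 to 2.98, so none reached the stricter threshold of 3. A Y234C peak lay in that of SCRIB (4.65-fold).

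The 5 lines that belong to neither set give values that the choice of genes did not use. R175H and R273C come next to the disrupted lines in the order of laminin ratio, and Y220C and the p53 knock-down line WTKD next to the kept ones. The study describes WTKD spheres as having laminin inside and disrupted polarity. WTKD and the mutant Y220C thus stand toward the kept end only in this order. Of the 173 genes higher in the disrupted lines, 86 (49.7%) were higher in R175H and R273C than in Y220C and WTKD by their means, against 43.1% of all tested genes. Of the 106 lower genes, 65 (61.3%) were lower, against 55.9% of all tested genes. The separated genes thus followed the order into the next lines only slightly more often than all genes did, and the shares were not tested.

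The 5 lines did not act alike. Among the 173 genes, R248W lay nearer to the disrupted mean than to the kept mean in 117 (67.6%) and R273C in 109 (63.0%), while R175H did in 59 (34.1%). Over all tested genes these shares were 53.3%, 54.0% and 48.4%. Among the 106 lower genes, they were 53.8% for R248W, 40.6% for R273C and 49.1% for R175H, so that R273C was mostly nearer to the kept mean there. MAP2 was 6.37 in R273C, 7.05 in R248W and 6.71 in Y220C, inside or near the disrupted range, and 4.19 in R175H and 3.26 in WTKD. PDK4 was 0.20 in R175H, 4.32 in R273C, 3.36 in R248W, 4.69 in Y220C and 2.12 in WTKD. BIK was listed at 0 in WTKD, next to the kept lines in the order, and was 2.30 in R175H, 3.86 in R273C, 1.68 in R248W and 3.64 in Y220C. CDH1 was 5.41 to 6.15 in all 5.

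**Figure D4:**
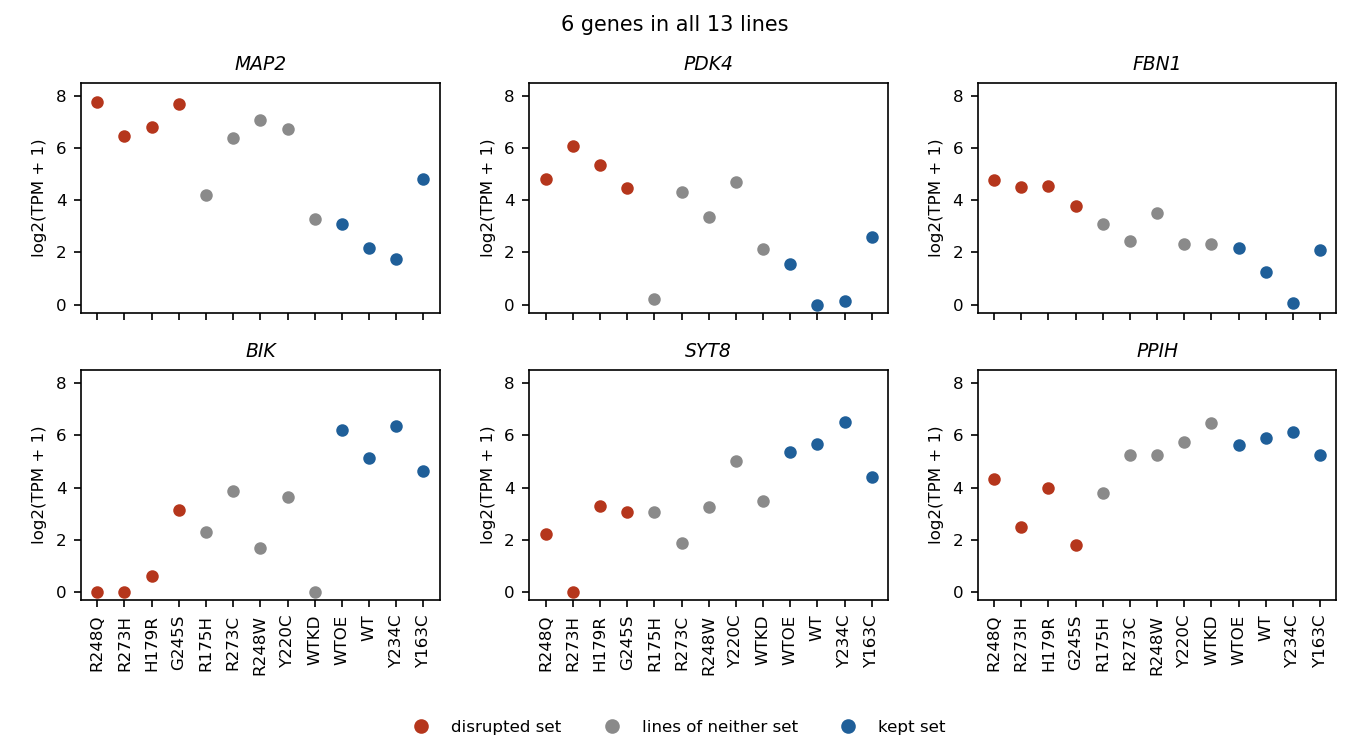
log2(TPM+1) of MAP2, PDK4, FBN1, BIK, SYT8 and PPIH in all 13 lines, with 1 point per line, disrupted lines at the left and kept lines at the right. In MAP2 the R273C, R248W and Y220C points (6.37, 7.05 and 6.71) lie by the disrupted lines, and in BIK the WTKD point lies at 0.

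With these lines added, 6 against 6, 11 of the 12783 tested genes were separated upward and 7 downward. Arbitrary labels of these lines can also separate genes, as described for the smaller sets. Neither count exceeds what such labels can give. The counts alone therefore do not set these lines apart from arbitrary sets. The 11 were ADAMTS12, CALCOCO1, CCND3, FBN1, LRP1, MRAS, SLITRK5, SMAD7, TAGLN2, UBXN6 and VCP, and the 7 were EBAG9, HES2, MMP14, PPARGC1B, PPIH, SLC2A9 and SYT8. Those not named before were picked by this count, after their values were seen. SMAD7, an inhibitor of TGF-beta signalling, averaged 3.27 in the 6 lines toward disrupted polarity and 1.10 in the 6 toward the kept end of the order. CCND3, a G1 cyclin, averaged 6.94 and 6.28, and TAGLN2, an actin-binding protein, 9.02 and 8.40. HES2, a transcription factor of the HES family, was listed at 0 in all 6 lines toward disrupted polarity and lay between 1.04 and 3.43 in the others. None of the 18 passed limma in the 6 against 6 fit, whose lowest adjusted p was 0.976.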

How the data were processed

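The authors aligned RNA-seq reads with STAR to GRCh38, dropped mitochondrial RNA and deposited log2(TPM+1), the log2 of TPM plus 1. TPM keeps no depth, so depth is unknown and no counting interval is given. The study describes many duplicate reads. Amplification was from a single primer, and strand use in counting is not given in the sources used here. For ChIP-seq, the authors used Bowtie2 2.1.0, SAMtools 1.7 and MACS2 2.1.2.20181017, and deposited the fold enrichment, a ratio to input, and −log10 q of each peak. Peaks of Y220C and R273C were not used.

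Here limma 3.58.1 (R 4.3.3) was fitted with trend to the 8 lines, 2-sided, with Benjamini-Hochberg adjustment over 12783 genes, and tested on simulated data. Other values were computed in Python 3.11.15 with pandas 2.3.3. Of tested genes, 99.5% had a GENCODE 44 entry. Named genes were CDKN1A, the 14 widest gaps each way among genes with a mean of at least 2 and no clone-type symbol (with a dot), all separated members of the lists of polarity, junction, laminin, receptor, protease, trafficking, actomyosin and lumen genes, 13 fixed genes of these lists, and up to 4 separated members each way of other lists; some genes that the rule chose are not reported here. Members and lists were chosen with earlier results of these data known. Alternatives covered each line left out, filters, pseudocounts of 0.1 and 8, scalings, a covariate, other sets and peak thresholds.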

Additional observations from a re-analysis of the deposited data

Results flagged for a closer look

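In sets of 4 lines, a value is given here where its gap to the nearest line is larger than Dixon's 95% critical share of the range of its set. Of 102 sets looked at, 7 were so, and chance alone gives about 1 in 20. R273H was the far line of the disrupted set in 5 of them. R273H was lowest for PKP3 (0, next line 3.18), KIAA1522 (2.37, next 4.13), MMP14 (2.75, next 3.57), LAMB3 (5.08, next 7.42) and PARD3 (1.72, next 4.50). R248Q was highest of the disrupted lines for LAMA5 (6.62, next 4.75). Of the kept lines, Y234C had the highest share of TPM in its 50 highest genes (46.8%, next 29.8%).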

How the results depend on the processing

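With 1 library per line, lines are the replicates, and no count test, interval was possible. No paired analysis was possible because the labels number no replicates. The largest shifts came from the choice of lines. Each line left out in turn gave 0 to 1 genes called higher and 0 to 3 lower, and 237 to 498 and 146 to 494 separated, more than with 8 lines because fewer lines must be apart. With fewer kept lines, 578 and 376 genes were separated against Y234C and Y163C only, and 651 and 1054 against WTOE and WT only. Without R273H and Y234C it was 610 and 597, with 6 against 6 it was 11 and 7. The stricter filter left 107 higher, and quantile normalization gave 167 lower. The covariate called 1 gene higher, MAP2. The distance difference was 0.583 over the 2000 most variable genes (exact permutation p = 0.257) and -4.02 to 3.31 without each line. The difference in genes detected was 586 against WTOE and WT only, and -499.67 to 731 without each line. Fibroblast markers had a median of -0.11 under the stricter filter. With peaks of −log10 q of at least 3, the R273H promoter share was 1.16% of higher genes, against 1.03% of all tested genes. WTOE shares were 1.16% and 1.89% of higher and lower genes and 1.98% of polarity, junction and matrix genes, against 1.15%. The Y234C share of higher genes was 0%, against 0.46%. Of 53 named genes under 20 alternatives, 49 never changed sign. Most were named because they were separated. That fixes their sign when a line is left out or fewer kept lines are used, so this count does not measure robustness. CDKN1A was 0.18 without R273H and Y234C and -0.89 to 0.061 without each line. LAMA5 was 0.011 against WTOE and WT only, 0.12 without R273H and Y234C, 0.086 with 6 against 6 and -0.58 to 0.17 without each line. LLGL2 was 0.32 with 6 against 6, and PARD3 -0.94 to 0.17 without each line. Leaving lines out moved the median of all genes between -0.17 and 0.24. The share of separated genes that were higher was 62.0%, 32.4% without Y234C and 77.3% without R273H. The cause of these changes was not tested.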

Other observations

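Genes of the matrix and of secreted signals outside the lists were also separated, and were picked after their values were seen. COL8A1, a short-chain collagen, was 8.19, 8.80, 6.20 and 8.55 in R248Q, R273H, H179R and G245S, against 5.91, 5.97, 5.98 and 5.90 in WTOE, WT, Y234C and Y163C. DKK1, a secreted WNT inhibitor, was 11.34, 9.59, 9.49 and 9.37 in the disrupted lines, against 8.73, 7.97, 7.82 and 8.75 in the kept lines. TGM2, a transglutaminase that crosslinks matrix, was 6.89, 5.20, 4.69 and 4.32 in the disrupted lines, against 2.57, 4.04, 1.04 and 3.22 in the kept lines. In the other direction, WWC1, the Hippo regulator KIBRA, was 3.89, 3.60, 5.09 and 4.70 in the disrupted lines, against 6.56, 6.05, 5.72 and 5.49 in the kept lines. SFN, the epithelial adaptor stratifin, was 7.65, 8.12, 8.62 and 7.76 in the disrupted lines, against 8.78, 9.49, 9.69 and 9.26 in the kept lines. WNT10B, a WNT ligand, was listed at 0 in 3 disrupted lines and at 0.27 in G245S, against 1.97 to 2.90 in the kept lines.

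AC002044.1, also picked after its values were seen, was lower by 5.85 on the log2 scale without R273H and then passed limma (adjusted p = 0.00657). It was listed at 0 in R248Q, H179R and G245S and lay at 6.73 in R273H, against 6.06, 6.09, 6.04 and 5.23 in the kept lines.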
